A study of Homo sapiens with 6 samples.

Results

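The alcohol dehydrogenase (ADH) genes of chromosome 4 encode zinc enzymes that pass electrons from an alcohol to NAD+ and release an aldehyde or a ketone. Class I (ADH1A, ADH1B and ADH1C) and class II (ADH4) are known as the liver enzymes of ethanol oxidation, class III (ADH5) is the glutathione-dependent formaldehyde dehydrogenase found in nearly every cell, class IV (ADH7) is an enzyme of the stomach and upper digestive tract that also oxidises retinol, and the role of class V (ADH6) is poorly known. The aldehydes that they release are passed on to aldehyde dehydrogenases. The genes were taken by name, as the rows ADH1A, ADH1B, ADH1C, ADH4, ADH5, ADH6 and ADH7, and make up 7 of the 16720 named rows of the count table. They were chosen by their values in this comparison of sgRFX6 with sgControl, the difference being known when they were listed, so their fold changes are descriptions and carry no test.

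Total RNA was sequenced from cells labelled Hep3B, an established human hepatocellular carcinoma line. There were 3 libraries labelled WT with a control guide (sgControl) and 3 labelled RFX6 knockout (sgRFX6, whose columns name guide sg3). The control columns are named cas, without a guide, and were taken as sgControl because no other columns remained. RFX6 is a winged-helix transcription factor, and ADH5 was among the glycolysis-pathway genes that the study considered as its targets. The paper reports that ADH5 mRNA and protein fell with RFX6 knockdown and rose with RFX6 overexpression. It shows ChIP-seq signal at the ADH5 promoter, but its ChIP-PCR found binding at PGAM1 rather than ADH5. Those assays used knockdown or overexpression, not the knockout libraries described here. According to the methods, guides were delivered in lentiCRISPRv2, cells were selected with puromycin, and clones grown from single cells were picked, but the number of clones behind the libraries is not given. RFX6 loss, the guide and the clone therefore cannot be told apart, and p-values measure only the spread between these libraries, whose origin from separate cultures is not stated.

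The libraries held 16730374 to 25070770 counts. RFX6 counts scaled to library size (CPM, with TMM factors) were 5.64, 5.83 and 7.34 in sgControl and 3.43, 3.71 and 3.50 in sgRFX6. No sgRFX6 value reached the lowest sgControl value, and the log2 fold change was −0.82 (SE 0.26, edgeR adjusted p = 0.142), which did not pass the threshold of 0.05. It passed with GC content offsets (adjusted p = 0.0468), which called 11.3% of genes. It also passed with limma-voom and sample quality weights (adjusted p = 0.00274), which called 31.1%. Under every other setting it did not pass, among them DESeq2 (adjusted p = 0.0736) and edgeR with a replicate block (adjusted p = 0.322). In edgeR fits without 1 library the adjusted p was 0.128 to 0.505. The paper reports loss of RFX6 in its knockout cells by western blotting and real-time PCR. Read counts do not measure the protein.

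The label of the cell line was checked against marker genes. Secreted products that define hepatocytes were low in sgControl, with mean CPM of 20.2 ± 10.4 for ALB (albumin), 2.03 ± 0.395 for AFP (alpha-fetoprotein), 0.482 ± 0.321 for TTR (transthyretin) and 1.06 ± 0.239 for APOA1 (apolipoprotein A1) (SD, n = 3). The 10 secreted markers lay between TTR and APOH (apolipoprotein H), which had 76.1 ± 12.5 CPM. Some genes of intestinal epithelium were higher, with 317 ± 34.7 for CDH17 (an intestinal cadherin), 452 ± 107 for VIL1 (villin of the brush border), 248 ± 52.0 for KRT20 (an intestinal keratin) and 571 ± 343 for LGALS4 (galectin-4). MUC13 (54.7) and CDX2 (32.4) lay above ALB but below APOH, and TFF3 (1.29), CEACAM5 (0.668) and GPA33 (0.408) were low (mean CPM). CDX1, MUC2 and FABP2 are not in the table. The low levels of ALB, AFP and TTR go against a hepatocyte pattern, and the identity of the line was not tested. Results are therefore given for the cells labelled Hep3B.

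The cluster spans chr4:99070978-99435737 on GRCh38 (GENCODE release 29), a stretch of 364.8 kb, with all 7 genes on the minus strand. From the low coordinate upwards the order is ADH5 (99070978 to 99088801), ADH4 (99123657 to 99157792), ADH6 (99202638 to 99219537), ADH1A (99276367 to 99291028), ADH1B (99304964 to 99352760), ADH1C (99336492 to 99353027) and ADH7 (99412261 to 99435737). The annotated ADH1B and ADH1C gene models overlap, exons included. An antisense RNA, AP002026.1, overlaps exons of ADH1A and ADH6, and whether the counting used strand is not given in the sources used here. Reads from the overlapping exons and from the antisense RNA therefore cannot be told apart. The representative transcript of ADH1A shared windows of 50 bases with AP002026.1, whereas that of ADH6 shared none.

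The promoters of the 3 members that were abundant enough to be fitted are shown first, because ADH1C and ADH6 differed between the groups while ADH5 did not. Each is RefSeq sequence of GRCh38.p14, from 250 bases before to 50 bases after the start that RefSeq gives, written 5′ to 3′ along the gene, with CpG dinucleotides in capitals. The RefSeq starts of ADH6 and ADH1C lie inside the longer GENCODE gene models given above, so these windows do too.
ADH5, chr4:99088739-99089038, minus strand: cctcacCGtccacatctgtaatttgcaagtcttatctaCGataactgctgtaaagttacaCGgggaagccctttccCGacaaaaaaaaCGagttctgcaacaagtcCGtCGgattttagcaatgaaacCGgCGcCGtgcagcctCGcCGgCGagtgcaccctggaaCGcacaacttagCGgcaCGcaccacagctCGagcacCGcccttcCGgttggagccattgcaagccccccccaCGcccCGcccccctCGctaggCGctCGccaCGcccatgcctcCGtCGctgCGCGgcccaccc
ADH6, chr4:99219197-99219496, minus strand: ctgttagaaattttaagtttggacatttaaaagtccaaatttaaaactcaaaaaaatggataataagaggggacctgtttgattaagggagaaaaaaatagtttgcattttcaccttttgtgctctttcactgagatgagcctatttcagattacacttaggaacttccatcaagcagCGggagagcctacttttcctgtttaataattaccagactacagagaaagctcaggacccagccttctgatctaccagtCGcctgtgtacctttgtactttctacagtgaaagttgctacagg
ADH1C, chr4:99352697-99352996, minus strand: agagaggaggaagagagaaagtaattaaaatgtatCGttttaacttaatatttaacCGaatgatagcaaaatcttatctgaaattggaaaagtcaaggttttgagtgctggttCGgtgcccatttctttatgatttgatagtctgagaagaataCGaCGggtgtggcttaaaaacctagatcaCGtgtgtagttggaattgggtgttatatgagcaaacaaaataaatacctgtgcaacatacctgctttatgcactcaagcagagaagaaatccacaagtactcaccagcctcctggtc

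The ADH5 promoter held 29 CpG dinucleotides and had 61.3% G and C, against medians of 14 and 58.7% over 35097 promoters of the same length. The ADH6 promoter held 2 CpG and the ADH1C promoter 6, each with 38.0% G and C. The promoters of ADH1A and ADH1B held 1 CpG each, that of ADH4 held 2, and the ADH7 promoters held 2 and 1. In CpG content ADH5 therefore stood apart from the other members. Motifs searched on both strands included the TATA box TATAAA, the C/EBP motif TTGCNNAA, the RFX half-site GTTGCC and the palindromic RFX X-box. None of these letters occurred in the ADH6, ADH1A, ADH1B or ADH1C windows. ADH5 held TTGCNNAA at 2 places, and ADH4 held TATAAA at 2 places and TTGCNNAA at 1. The 2 ADH7 windows overlap each other. Together they gave 2 hits of TATAAA and 3 of TTGCNNAA, of which 2 are the same site seen in both windows. GTTGCC, which 12.2% of all promoters held, and the X-box, which 1.31% held, were in none of the 8 member promoters. TATAAA was in 11.5% and TTGCNNAA in 10.5% of all promoters.

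The class I genes are close copies, and 60 bases of coding sequence from exon 3, bases 184 to 243 of the coding sequence, show how little separates them there. Capitals mark the position at which the copies differ.
ADH1C, chr4:99347022-99347081, minus strand: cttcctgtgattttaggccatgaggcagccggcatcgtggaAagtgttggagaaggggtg
ADH1B, chr4:99318062-99318121, minus strand: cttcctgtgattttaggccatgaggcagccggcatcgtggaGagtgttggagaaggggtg
ADH1A, chr4:99286866-99286925, minus strand: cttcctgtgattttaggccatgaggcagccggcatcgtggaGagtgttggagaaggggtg
Bases 385 to 444, in exon 5, show a stretch where reads can be assigned, with 9 positions that differ.
ADH1C, chr4:99344985-99345044, minus strand: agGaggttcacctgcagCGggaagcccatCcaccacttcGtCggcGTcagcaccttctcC
ADH1B, chr4:99316021-99316080, minus strand: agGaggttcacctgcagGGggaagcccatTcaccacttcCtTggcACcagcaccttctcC
ADH1A, chr4:99284522-99284581, minus strand: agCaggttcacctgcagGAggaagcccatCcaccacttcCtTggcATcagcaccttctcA

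Over the 1125 coding bases, 87 positions differed among the 3 class I genes, and the longest identical stretch was 71 bases. Coding identity was 94.9% between ADH1A and ADH1B, 93.9% between ADH1A and ADH1C and 95.6% between ADH1B and ADH1C, and 66.8% to 72.5% for every other pair of members. ADH1C and ADH6, the members that were higher in sgRFX6, were 69.3% identical. Reads of ADH6 thus had no close copy among the members.

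The read length and the treatment of reads with several matches are not given in the sources used here, so exact sharing was counted in the representative transcript of each gene for several window lengths. Of the 50-base windows of ADH1C, 20.9% occurred in a transcript of another gene, mainly ADH1B, and the share fell to 10.8% of 75-base, 6.58% of 100-base and 1.32% of 150-base windows. No window of ADH6 or ADH7 occurred elsewhere at any length. ADH5 shared 13.99% of its 50-base windows with other genes, mainly the pseudogene ADH5P4, and none with another member. Class I counts are thus uncertain among ADH1A, ADH1B and ADH1C, and their sum is given beside them.

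**Figure D1:**
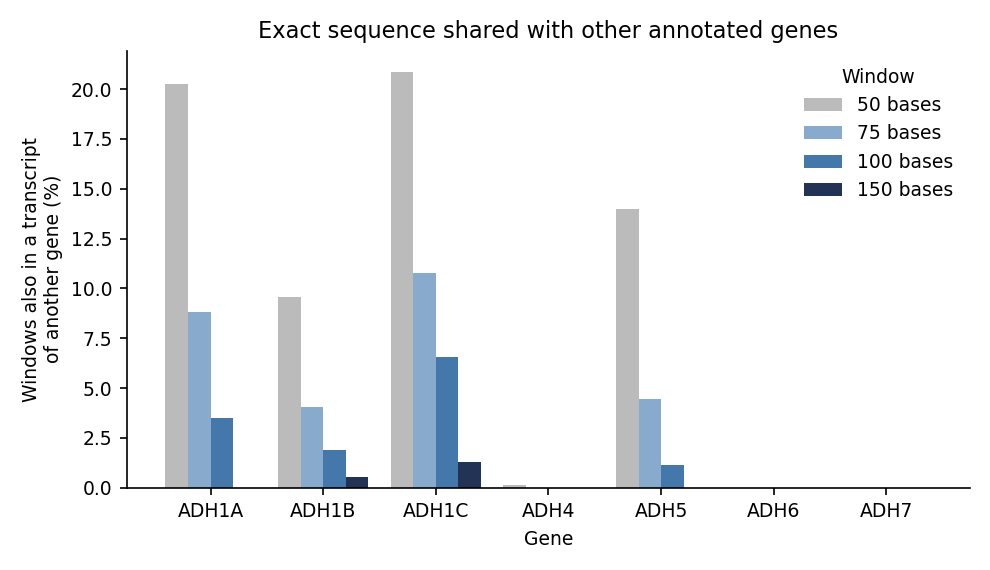
Share of each ADH transcript's windows of 50, 75, 100 and 150 bases (bars, percent, from 0) that occur exactly in an annotated transcript of another gene. ADH1C is highest, from 20.9% at 50 bases to 1.32% at 150 bases, and ADH6 and ADH7 are at 0 throughout.

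Among the class I genes, which oxidise ethanol in the adult liver, ADH1C was the copy with counts above the floor of 3. The sgControl libraries held 2, 2 and 4 counts of ADH1C, and the sgRFX6 libraries held 91, 30 and 99. In CPM this was 0.0963, 0.0810 and 0.173 in sgControl against 4.52, 1.88 and 4.49 in sgRFX6. All 3 sgRFX6 libraries lay above all 3 sgControl libraries, and sgRFX6 replicate 2, the library with the fewest counts, had the lowest of the sgRFX6 values. The group means were 0.117 ± 0.0491 and 3.63 ± 1.51 CPM (SD, n = 3), and the fitted log2 fold change was 4.90 (SE 0.55). Summed over libraries, 220 counts stood against 8, a ratio of 32.5 at equal effective depth, with an exact binomial 95% interval of 16.2 to 76.2 that covers counting error only.

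ADH1A and ADH1B, the other class I genes, were not detectable above the floor. ADH1A had 1 count in sgControl replicate 3 and 1 in sgRFX6 replicate 1, and 0 in the other libraries. ADH1B had 0 counts in all 3 sgControl libraries and 1, 0 and 1 in sgRFX6. Adding the class I genes to 1 row gave 9 counts in sgControl and 223 in sgRFX6, a ratio of 29.3 (15.1 to 64.9, exact binomial, counting error only) and a log2 fold change of 4.76 (SE 0.56). The summed value does not depend on how reads were divided among the copies, and it lay within 1 SE of that of ADH1C alone.

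ADH4, the class II enzyme of the liver, was counted 2, 4 and 0 times in sgControl against 1, 2 and 1 in sgRFX6. ADH7, the class IV enzyme of the stomach, had 0, 0 and 1 in sgControl and 2, 0 and 2 in sgRFX6. Both groups were at or near the floor, which corresponds to 0.121 to 0.188 CPM in these libraries, so a difference was not detectable at this depth and no fold is given.

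ADH5, which oxidises the glutathione adduct of formaldehyde and reduces S-nitrosoglutathione, was the abundant member. The sgControl libraries gave 2314, 2920 and 2665 counts and the sgRFX6 libraries 2580, 1839 and 2638. Scaled for depth, this was 111, 118 and 115 CPM in sgControl and 128, 116 and 120 CPM in sgRFX6. The groups overlapped, since sgRFX6 replicate 2 lay below sgControl replicate 2. The means were 115 ± 3.38 and 121 ± 6.39 CPM (SD, n = 3), and the log2 fold change was 0.08 (SE 0.15). Within a group the log2 CPM of ADH5, with a prior count of 2, had an SD of 0.04 in sgControl and 0.08 in sgRFX6. The SD was 0.32 and 0.70 for ADH1C and 0.67 and 0.33 for ADH6. The prior narrows the spread at low counts, such as those of ADH1C in sgControl.

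For ADH6, the class V gene, 27, 67 and 25 reads were counted in sgControl against 292, 158 and 333 in sgRFX6. The corresponding levels were 1.30, 2.71 and 1.08 CPM in sgControl and 14.5, 9.93 and 15.1 CPM in sgRFX6. No library of one group came near the other group, although sgControl replicate 2 was high and sgRFX6 replicate 2 low within their groups. The means were 1.70 ± 0.886 and 13.2 ± 2.84 CPM (SD, n = 3), with a log2 fold change of 2.95 (SE 0.40), and the summed counts of 783 and 119 gave a ratio of 7.78 (6.40 to 9.51, exact binomial, counting error only). A smooth trend of each library with GC content stood at −0.23 in sgRFX6 replicate 2 and 0.41 in sgRFX6 replicate 3 on the log2 scale at ADH6, and with this trend removed the log2 fold change was 2.87 (SE 0.39). Without sgControl replicate 2 it was 3.46 (SE 0.33). That library also had the highest sgControl CPM of LGALS4 (967, against 363 and 384). The same held for the intestinal transcription factor CDX2 (58.3, against 19.7 and 19.4). The hepatocyte markers ALB (32.1, against 15.7 and 12.9) and FGB (34.4, against 22.3 and 22.5) were highest there too. AFP (1.58, against 2.31 and 2.20) and CEACAM5 (0.526, against 0.530 and 0.949) were lowest there. The difference of that library was thus not particular to intestinal genes, and its part in the ADH6 value was not tested. In bulk RNA, fewer cells that express a gene and less RNA per cell cannot be told apart.

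**Figure D2:**
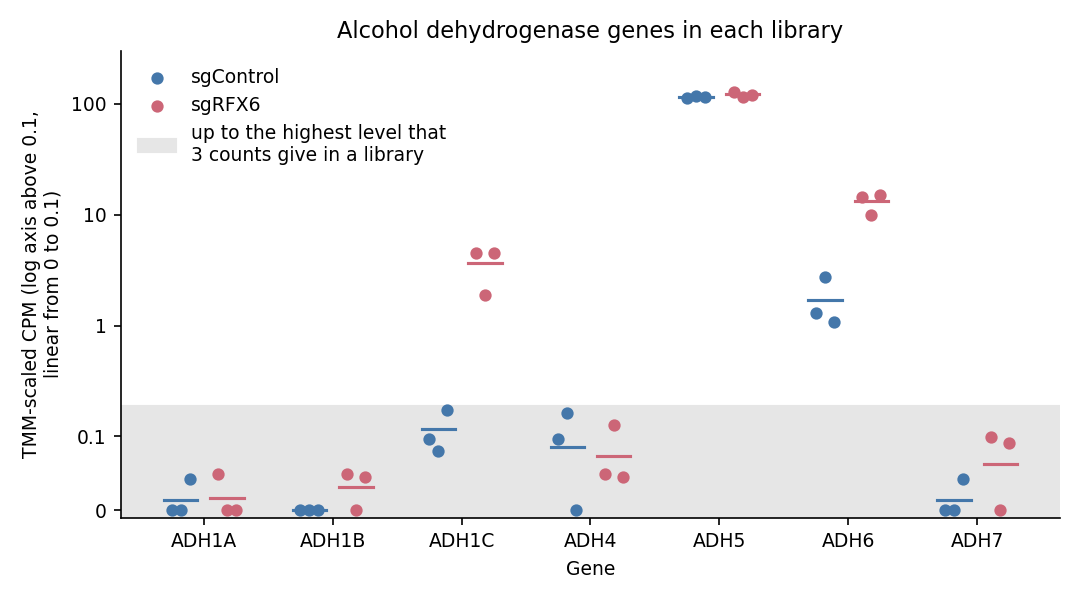
Level of each ADH gene in the 3 sgControl libraries (blue) and the 3 sgRFX6 libraries (red), in TMM-scaled CPM on an axis that is logarithmic above 0.1 and linear below, with bars at the group means. ADH1C (0.0810 to 0.173 against 1.88 to 4.52) and ADH6 (1.08 to 2.71 against 9.93 to 15.1) separate by group, ADH5 (111 to 128) does not, and the other genes stay in the grey band, which reaches 0.188, the highest level that 3 counts give in a library.

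Of the 12839 genes that passed edgeR's filter on low counts, 480 (3.74%) were called at an adjusted p under 0.05, 247 (1.92%) higher and 233 (1.81%) lower in sgRFX6, and the libraries of the groups did not overlap for 23.1% (12.0% with every sgRFX6 library above and 11.2% with every one below). The 7 members yielded 3 that passed the filter, of which ADH1C and ADH6 were called, both higher. Both were also called with DESeq2, which called 6.44% of its genes, with GC content offsets (11.3%) and with limma-voom and sample quality weights (31.1%), all of which use the same libraries. These counts describe members chosen with this difference known, and ADH1C passed the filter through its sgRFX6 libraries alone. By fitted log2 fold change ADH1C stood at rank 7, ADH6 at rank 46 and ADH5 at rank 5645 of the 12839, counted from the largest rise.

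Levels of different genes were compared per length, as CPM divided by the kilobases of the representative transcript (RPKM). In sgControl the order was ADH5 at 43.9 ± 1.29, ADH6 at 1.004 ± 0.524 and ADH1C at 0.0670 ± 0.0282 RPKM (SD, n = 3). In sgRFX6 it was the same, with ADH5 at 46.3 ± 2.44, ADH6 at 7.79 ± 1.68 and ADH1C at 2.09 ± 0.870 RPKM. No libraries of neighbouring genes in this order overlapped within a group, whereas in sgControl the values of ADH1C and of ADH4, the next gene, did. ADH6 reached 1.80%, 3.55% and 1.45% of the RPKM of ADH5 in the sgControl libraries and 17.5%, 13.3% and 19.5% in the sgRFX6 libraries. The class III gene thus remained the most abundant transcript of the cluster in every library, while the distance to ADH6 was smaller in sgRFX6.

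The genes beside the cluster were not used to choose the members. Of 10 genes within 1 Mb of its ends that are in the table, 9 were tested, 0 were higher and 1 was lower in sgRFX6, beside 1.81% called lower over all tested genes. METAP1, a methionine aminopeptidase beside ADH5, had 72.1, 58.8 and 79.3 CPM in sgControl and 66.9, 70.2 and 78.3 in sgRFX6 (log2 0.04, SE 0.18, edgeR adjusted p = 0.962). EIF4E, the cap-binding translation factor farther along, had a log2 fold change of −0.01 (SE 0.31, edgeR adjusted p = 0.995). Both genes overlapped between the groups.

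On the ADH7 side, TRMT10A, a tRNA methyltransferase and the nearest tested gene, had 6.21, 4.74 and 4.27 CPM in sgControl and 2.23, 2.26 and 6.63 in sgRFX6 (log2 −0.44, SE 0.45, edgeR adjusted p = 0.734). MTTP, the microsomal triglyceride transfer protein that loads lipid onto apolipoprotein B, was the gene that fell, from 43.9, 65.6 and 36.2 CPM to 10.6, 7.92 and 17.2 CPM (log2 −2.02, SE 0.34, edgeR adjusted p = 0.0141). Without sgRFX6 replicate 1 its log2 fold change was −1.94 and the adjusted p was 0.0699. The annotated MTTP and TRMT10A gene models overlap on opposite strands. The 50 tested genes nearest to the cluster, out to 11.1 Mb, held 1 called higher and 1 called lower, beside 3.74% called over all tested genes. Their median log2 fold change was 0.02, the same as the median of 0.02 over the 419 tested genes of chromosome 4.

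**Figure D3:**
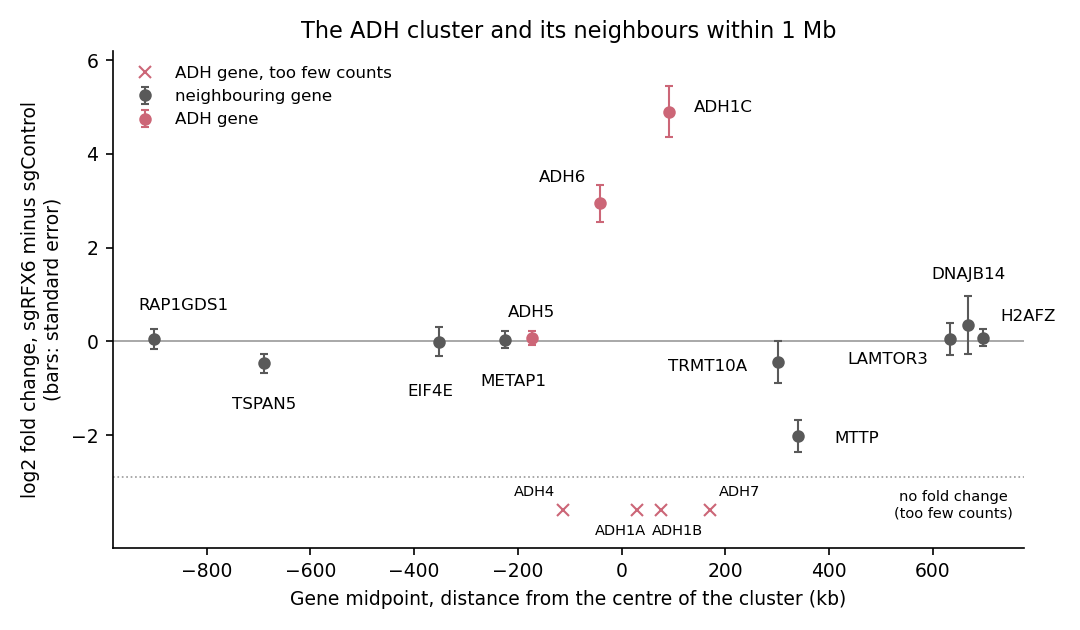
Log2 fold change (sgRFX6 minus sgControl, bars are standard errors) of the ADH genes (red) and of the tested genes within 1 Mb (grey) by distance of the gene midpoint from the centre of the cluster in kb. ADH6 (2.95) and ADH1C (4.90) stand above neighbours that lie between −2.02 (MTTP) and 0.35, and the 4 ADH genes with too few counts are crosses under the dotted line, without a value.

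Other enzymes of alcohol, aldehyde and retinol oxidation were taken as a list of 46 genes, of which 45 were in the table (RDH8 was not) and 38 were tested. DHRS9 and ACSS1 rose and 0 fell, so 2 of 38 were called, beside the 3.74% over all tested genes. An unadjusted edgeR p under 0.05 was found for 5 of the 38, beside 2000 of all 12839 tested genes. The median log2 fold change of the list was 0.04, against 0.02 over all tested genes, with 23 genes above 0 and 15 below.

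DHRS9, a short-chain dehydrogenase that oxidises retinol, rose from 4.43, 2.83 and 2.85 CPM in sgControl to 9.98, 11.0 and 12.2 CPM in sgRFX6, without overlap (log2 1.71, SE 0.28, edgeR adjusted p = 0.0119). Without sgControl replicate 3 the adjusted p was 0.0780 and the log2 fold change 1.64. ACSS1, which makes acetyl-CoA from acetate in mitochondria, rose from 33.4, 37.9 and 35.7 CPM to 83.6, 77.7 and 58.5 CPM (log2 1.04, SE 0.19, edgeR adjusted p = 0.0214). It was called in 1 of the 6 fits that left out a library (without sgRFX6 replicate 3), and its adjusted p reached 0.118 without sgRFX6 replicate 1, with log2 fold changes from 0.93 upwards.

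Among the enzymes that act on the products of ADH, 3 abundant aldehyde dehydrogenases did not pass the test. ALDH2, the mitochondrial acetaldehyde dehydrogenase, averaged 364 ± 74.6 CPM under sgControl against 472 ± 78.7 CPM under sgRFX6 (SD, n = 3, log2 0.37, edgeR adjusted p = 0.450). ALDH1A1, the cytosolic retinal dehydrogenase, had 3020 ± 403 and 2849 ± 740 CPM (log2 −0.08, edgeR adjusted p = 0.929). ALDH3A1, which oxidises aromatic aldehydes, had 1753 ± 782 and 2252 ± 546 CPM (log2 0.36, edgeR adjusted p = 0.690). Groups overlapped for all 3 genes. With limma-voom and sample quality weights ALDH2 and ALDH3A1 were called. ALDH1A2, ALDH1A3, ALDH3B2 and ALDH8A1 had 0 to 4 counts in each library and were not tested.

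ESD, which hydrolyses the S-formylglutathione that ADH5 produces, averaged 17.5 ± 1.80 CPM under sgControl against 17.3 ± 5.22 CPM under sgRFX6 (SD, n = 3, log2 −0.02, edgeR adjusted p = 0.987). SDR16C5, another retinol dehydrogenase, had a log2 fold change of 0.99 (edgeR adjusted p = 0.0569). SORD, sorbitol dehydrogenase of the same enzyme superfamily as the ADHs, had one of −0.53 (edgeR adjusted p = 0.130). Both were called with GC content offsets (11.3% of genes called) and with limma-voom and sample quality weights (31.1%). SDR16C5 was also called with DESeq2 (6.44%). CYP2E1, the inducible microsomal ethanol-oxidising cytochrome, was counted 1, 3 and 5 times in sgControl against 2, 5 and 4 in sgRFX6 and was not tested.

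A list of 18 transcription factors and nuclear receptors known to regulate ADH genes had 15 tested members, of which 1 was higher and 0 were lower in sgRFX6, beside 3.74% called over all tested genes, with a median log2 fold change of −0.10. NR1H4, the bile acid receptor FXR, rose from 4, 5 and 3 counts to 22, 12 and 22 counts (log2 2.41, SE 0.44, edgeR adjusted p = 0.0203). It passed the filter on low counts through its sgRFX6 libraries alone, and the stricter filter removed it. Its adjusted p was 0.0753 without sgControl replicate 1, 0.105 without sgControl replicate 3 and 0.0937 without sgRFX6 replicate 1, with log2 fold changes of 2.26 to 2.47. HNF4A, a nuclear receptor of liver and gut, had a log2 fold change of −0.27 (edgeR adjusted p = 0.494), CEBPA, a leucine zipper factor, 0.34 (edgeR adjusted p = 0.6005) and FOXA1, a forkhead factor, −1.08 (edgeR adjusted p = 0.0623).

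Some markers of other epithelia differed between the same groups as ADH1C and ADH6, and their part in the values of these genes was not tested. Of 12 intestinal markers, 9 were in the table and tested (CDX1, MUC2 and FABP2 were not in it), 4 were higher and 0 lower, beside 1.92% called higher over all tested genes, and the median log2 fold change was 1.10. Their summed level overlapped between the groups, at 1317 to 2329 CPM in sgControl and 2108 to 2674 CPM in sgRFX6. CEACAM5, carcinoembryonic antigen, rose from 0.530, 0.526 and 0.949 CPM to 17.6, 9.80 and 17.6 CPM (log2 4.48, edgeR adjusted p = 0.00107), and KRT20 rose by a log2 fold change of 1.67 (edgeR adjusted p = 0.00430). GPA33, an intestinal surface antigen, rose by 4.11 on the log2 scale (edgeR adjusted p = 0.0251). MUC13, a transmembrane mucin, rose by 1.60 (edgeR adjusted p = 0.0247). GPA33 had 6, 21 and 2 counts in sgControl against 261, 39 and 139 in sgRFX6. It passed the filter on low counts only through its sgRFX6 libraries, and it is 1 of the 4 called. Leaving out sgControl replicate 1, sgControl replicate 3 or sgRFX6 replicate 1 raised the adjusted p of GPA33 to 0.0632, 0.0796 and 0.0767 and that of MUC13 to 0.0737, 0.0968 and 0.0912. The log2 fold change of GPA33 was 3.39 without sgRFX6 replicate 1, 5.26 without sgControl replicate 2 and 5.86 with limma-voom.

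CDX2, CDH17, LGALS4, VIL1 and TFF3, the other tested intestinal markers, had log2 fold changes of −0.43, 0.67, 0.11, −0.59 and 1.10 and did not pass the test. Of 6 stomach markers, 4 were in the table and tested (GKN1 and GKN2 were not in it). Of these 1 was higher and 0 were lower, beside 1.92% called higher over all tested genes. It was MUC5AC, the gel-forming mucin of the stomach surface (log2 2.46, edgeR adjusted p = 0.00885). Without sgControl replicate 3 its adjusted p was 0.0516. The summed stomach markers were 2.98 to 3.81 CPM in sgControl and 8.31 to 15.3 CPM in sgRFX6. Their median log2 fold change was 1.37, which includes TFF2, with 4, 4 and 6 counts in sgControl. TFF2 passed the filter on low counts only through its sgRFX6 libraries.

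The 12 hepatocyte markers, all tested, did not move in 1 direction. AFP was higher (log2 2.82, edgeR adjusted p = 0.00254) and FGB, the fibrinogen beta chain, was lower (log2 −2.45, edgeR adjusted p = 0.00417). These were the only hepatocyte markers called, beside 3.74% called over all tested genes, and the median log2 fold change was 0.12. The summed level, mostly the keratins KRT8 and KRT18, was 7313 to 8165 CPM in sgControl and 5723 to 9079 CPM in sgRFX6. Of 7 blood and stroma markers, 6 were in the table (CDH5 was not) and 5 were tested, and their summed level was 18.6 to 19.4 CPM in sgControl and 17.97 to 22.8 CPM in sgRFX6. COL1A1, a fibrillar collagen, was the 1 called and was lower, beside 1.81% called lower over all tested genes. Its log2 fold change was −2.08 (edgeR adjusted p = 0.0108, and 0.0558 without sgControl replicate 3 or 0.0650 without sgRFX6 replicate 1). The T cell gene CD3E was at 0 counts in 5 of the 6 libraries.

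**Figure D4:**
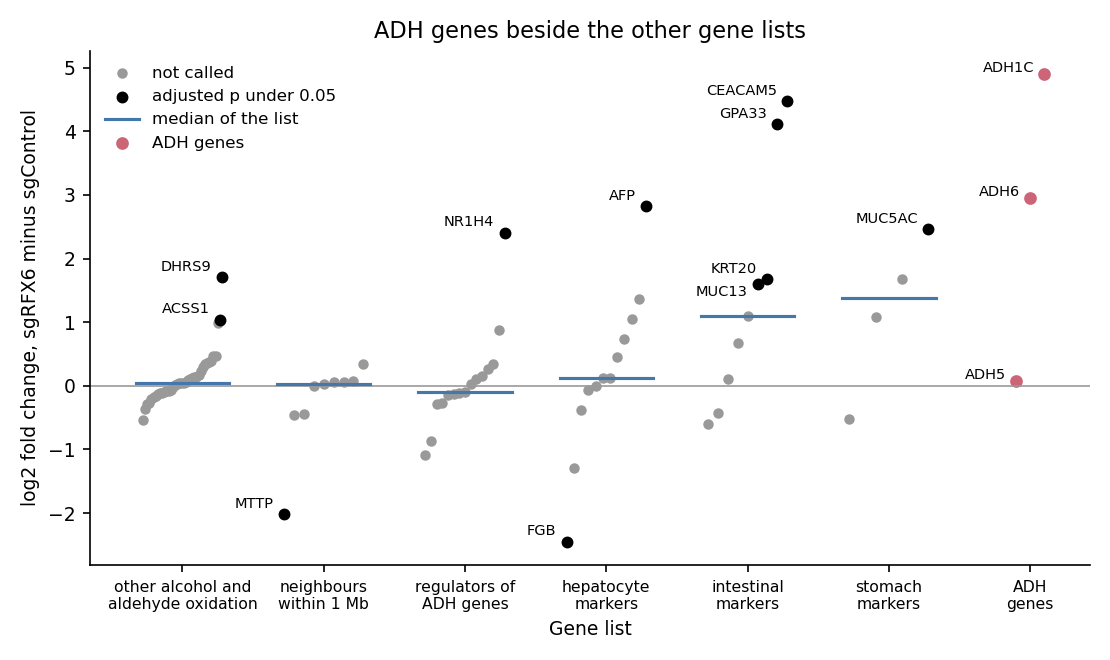
Log2 fold change (sgRFX6 minus sgControl) of each tested gene in 6 gene lists and of the tested ADH genes, with genes of the lists called at an adjusted p under 0.05 in black and the median of each list as a blue line. The oxidation list centres on 0.04 and the intestinal list on 1.10, and ADH1C (4.90) and ADH6 (2.95) lie above every oxidation gene, of which DHRS9 (1.71) is highest.

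The genes whose levels followed the members most closely over the 6 libraries were found by Pearson's r of log2 CPM, among tested genes whose mean log2 CPM was 1 or more. All points share the same 6 libraries in 2 groups, so r mainly reflects the difference between the groups and is a description. For ADH1C they were CEACAM5 (r = 0.997), BCL2L15 (a BCL2 family member, r = 0.995) and PRKAG2 (a regulatory subunit of AMP-activated kinase, r = 0.994), and 400 of 11121 genes had an r above 0.9. For ADH6 they were SYTL4 (a vesicle docking protein, r = 0.999), VSIG10 (an immunoglobulin-domain protein, r = 0.998) and DLG3 (a membrane scaffold protein, r = 0.995), with 384 of 11120 above 0.9. For ADH5 they were PPM1H (a protein phosphatase, r = 0.974), FFAR4 (a fatty acid receptor, r = 0.971) and AIG1 (a hydrolase of lipid esters, r = 0.969), with 22 above 0.9. Between members r was 0.945 for ADH1C and ADH6, 0.710 for ADH5 and ADH6 and 0.687 for ADH5 and ADH1C.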

How the data were processed

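RNA of 3 sgControl and 3 sgRFX6 libraries of cells labelled Hep3B was isolated with Trizol for Illumina sequencing. The authors deposited 1 table of counts, whole reads per gene, without normalisation. GRCh38 and hg38 are named in the submitters' processing notes, and the aligner, counter, annotation, strand setting and read length are not given in the sources used here. Columns were assigned to samples by name and replicate number, and the columns named cas were taken as sgControl. Of 16721 rows, 1 without a gene name (at most 9.17e-05% of counts) was left out.

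Counts were filtered with filterByExpr (minimum count 10, minimum total 15), scaled by TMM and fitted with the edgeR 4.0.16 quasi-likelihood test in R 4.3.3, with no covariate, and Benjamini-Hochberg adjustment ran over 12839 genes. The common biological coefficient of variation was 0.269. A level of 3 counts was taken as the floor. Names matched GENCODE release 29 for 15422 rows and by another symbol for 262. RPKM used the representative transcript. Replicates differed beyond counting noise (chi-square per degree of freedom 16.2 to 117). On counts simulated from these libraries, 93.5% of 200 changed genes among 12751 were recovered with 5.56% false calls, and 0 of 12727 were called with none changed. The changed genes were well counted and all had the same large fold change, and no trend across a library was simulated. The recovery therefore does not extend to genes near the floor or to smaller changes.

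The members and lists were chosen with earlier results of these data known. Named genes are RFX6, the members, called genes of each list, METAP1, EIF4E, the nearest tested gene beyond ADH7 and the 3 genes most like each tested member. AFP, FGB, COL1A1, MUC5AC, other listed genes that were not called, and the markers given for the label check were named after their values were seen. A listed item is not reported here. Alternatives were DESeq2 1.42.0, limma-voom 3.58.1 with sample quality weights, scaling by RLE or by library size alone, no filter, a filter of 1 CPM in 3 libraries, a replicate block, GC content offsets (span 0.3, prior count 2, 12210 genes) and each library left out in turn.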

Additional observations from a re-analysis of the deposited data

How the results depend on the processing

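ADH1C and ADH6 were higher in sgRFX6 in the main edgeR fit and under all 14 alternatives, which refit the values by which the genes were chosen and are no independent support. Over the alternatives the log2 fold change ranged from 4.53 to 5.31 for ADH1C, from 2.73 to 3.48 for ADH6, from 0.04 to 0.13 for ADH5 and from 4.35 to 5.32 for the class I sum. With limma-voom and sample quality weights ADH6 was at 3.48. Leaving out 1 library gave 4.68 to 5.31 for ADH1C, 2.73 to 3.46 for ADH6, 0.04 to 0.11 for ADH5 and 4.49 to 5.32 for the class I sum. The alternatives were not run for the fold changes of ADH1A, ADH1B, ADH4 and ADH7, whose groups were at or near the floor.

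The number of genes called was 480 with edgeR, 908 with DESeq2, 1383 with GC content offsets (12210 genes tested) and 3998 with limma-voom, and 212 to 718 when 1 library was left out (306 without sgControl replicate 1, 212 without sgControl replicate 3, 216 without sgRFX6 replicate 1 and 307 without sgRFX6 replicate 2). The calls split 247 higher and 233 lower in the main fit, 117 and 189 without sgControl replicate 1, 85 and 127 without sgControl replicate 3, and 2329 and 1669 with limma-voom. Oxidation genes called were 2 in the main fit, 4 with GC content offsets, 11 with limma-voom and 0 to 2 without 1 library, 0 being without sgControl replicate 3. Neighbours called were 1, 4 with limma-voom and 0 to 1 without 1 library, 0 being without sgRFX6 replicate 1. The cause of these differences was not tested. The libraries share replicate numbers, and deviations of same-numbered libraries correlated at −0.406, 0.174 and −0.0867. Some libraries of different numbers correlated more highly. The values were 0.565 for sgControl replicate 1 with sgRFX6 replicate 3 and 0.436 for sgControl replicate 2 with sgRFX6 replicate 1. Deviations within a group of 3 are not independent, so these correlations cannot decide whether the libraries were paired. With the replicate block 648 genes were called, and ADH1C was at 4.85, ADH6 at 3.03, ADH5 at 0.08 and the class I sum at 4.73. Depth limits ADH1A, ADH1B, ADH4 and ADH7, and the sgControl level of ADH1C rests on 8 counts.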
